A study of Homo sapiens with 6 samples.

Results

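PA-1 is a human ovarian teratocarcinoma line, and 3 RNA-seq libraries of it were compared: 1 with a scramble hairpin, called the control, and 1 with each of 2 lentiviral short hairpin RNAs against MEX3A, called hairpin 1 and hairpin 2. They were 3 of the 6 libraries of the series. The other 3 carried the same constructs in TOV21G, an ovarian clear cell carcinoma line. All cells compared here, the control included, had been infected with lentivirus, and the series' design text calls each depleted line a clone. Hairpins 1 and 2 are different reagents against the same transcript, and no label says that the libraries came from separate cultures. Genes were taken where the mean over the 3 PA-1 libraries reached 5 CPM (counts scaled to a common library total, from expected counts and the effective library size). This held for 11130 of 39282 genes. A further 11168 genes had counts below that level and 16984 had none in any of the 3 libraries. ALX1 lay just inside the threshold with a mean of 5.0006 CPM and LOC102724660 just outside it with 4.9996 CPM.

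MEX3A belongs to the MEX3 family of RNA-binding proteins, which bind transcripts through KH domains and carry a RING domain that can transfer ubiquitin. The title of the series places it upstream of p53, the transcription factor that induces MDM2, its own ubiquitin ligase, together with cell cycle inhibitors such as CDKN1A. Teratocarcinoma cells resemble early embryonic cells and keep pluripotency factors such as POU5F1, SOX2 and LIN28A, and they can differentiate along neural and other lines.

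Total expected counts in the PA-1 libraries lay between 15769163 and 19495162, so that 3 counts, the limit that a count of 0 allows, were worth 0.156 to 0.192 CPM. This limit covers counting error only. The tissue label, ovarian surface epithelial cells, was not borne out by its markers: 3 of 12 reached the level (KRT8, KRT18 and WT1), while all 12 teratocarcinoma markers did. Of the other markers checked, 7 of 12 for clear cell carcinoma, 5 of 12 for fibroblasts, 5 of 8 for endothelial cells and 0 of 14 for blood cells reached it. Ribosomal protein genes took 5.53% of counts in the control and 4.78% and 5.02% with hairpins 1 and 2. The mitochondrial ribosomal RNAs RNR1 and RNR2 took 1.42%, 1.84% and 1.82%, and the rows of nuclear ribosomal RNA 0.123%, 0.149% and 0.0899%. The nuclear RNA MALAT1 stood at 926 CPM in the control and 1325 and 1135 with hairpins 1 and 2. The part of RNA composition in the differences below was not tested.

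MEX3A itself, on chromosome 1 at 156072013 to 156082465 (GRCh38.p14), was lower with each hairpin. It stood at 139.6 CPM in the control and 41.9 and 56.02 CPM with hairpins 1 and 2, which is 30.01% and 40.1% of the control. The fitted log2 fold change of knockdown against control was -1.51 (SE 0.21) with an adjusted p of 0.228 in edgeR's quasi-likelihood test and 1.76e-05 in DESeq2. The rest of the family stood near the control, except MEX3D with hairpin 2. MEX3B stood at 16.3, 17.9 and 15.1 CPM, MEX3C at 174, 182 and 158 CPM, and MEX3D at 38.2, 44.2 and 27.4 CPM, values given here and below in the order control, hairpin 1, hairpin 2. Only MEX3D with hairpin 2 differed by more than 0.3 on the log2 scale in these 3 genes (-0.48). In TOV21G MEX3D stood at 34.6, 48.3 and 17.3 CPM.

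No gene passed the test across genes. With 2 knockdown libraries against 1 control, edgeR's quasi-likelihood test called 0 genes higher (0%) and 0 lower (0%) of 11130 at an adjusted p under 0.05. At an unadjusted p under 0.05 it had 503 higher (4.52%) and 307 lower (2.76%). DESeq2 on the same genes called 102 higher (0.916%) and 17 lower (0.153%). edgeR itself called 470 higher and 133 lower when all genes with a count were kept in its fit, and 18 higher and 1 lower with scaling by total counts. For a single gene, an exact permutation test of 2 libraries against 1 cannot go below 0.333. The differences below are therefore described as the values of these libraries, each hairpin against the same control, as differences of log2 CPM (prior count 2). Since both differences contain the same control library, a gene that is unusually low or high in the control is displaced with both hairpins at once.

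More genes were at least 2-fold above the control than below it with each hairpin. The level was a mean over 2 hairpin libraries and 1 control, so genes low in the control entered more easily than genes low with both hairpins. The part of this rule in the counts was not tested. With hairpin 1, 58.7% of genes were within 0.2 of the control on the log2 scale, with hairpin 2 51.3%, and between the hairpins 57.5%. Within that bound of the control with both hairpins lay 4041 genes (36.3%). At least 2-fold higher were 178 genes with hairpin 1 (1.6%) and 302 with hairpin 2 (2.71%). At least 2-fold lower were 38 genes with hairpin 1 (0.341%) and 68 with hairpin 2 (0.611%). Both hairpins were at least 2-fold above the control in 141 genes (1.27%) and at least 2-fold below it in 13 (0.117%). At any size, both lay above the control in 3510 genes (31.5%) and below it in 4320 (38.8%).

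**Figure D1:**
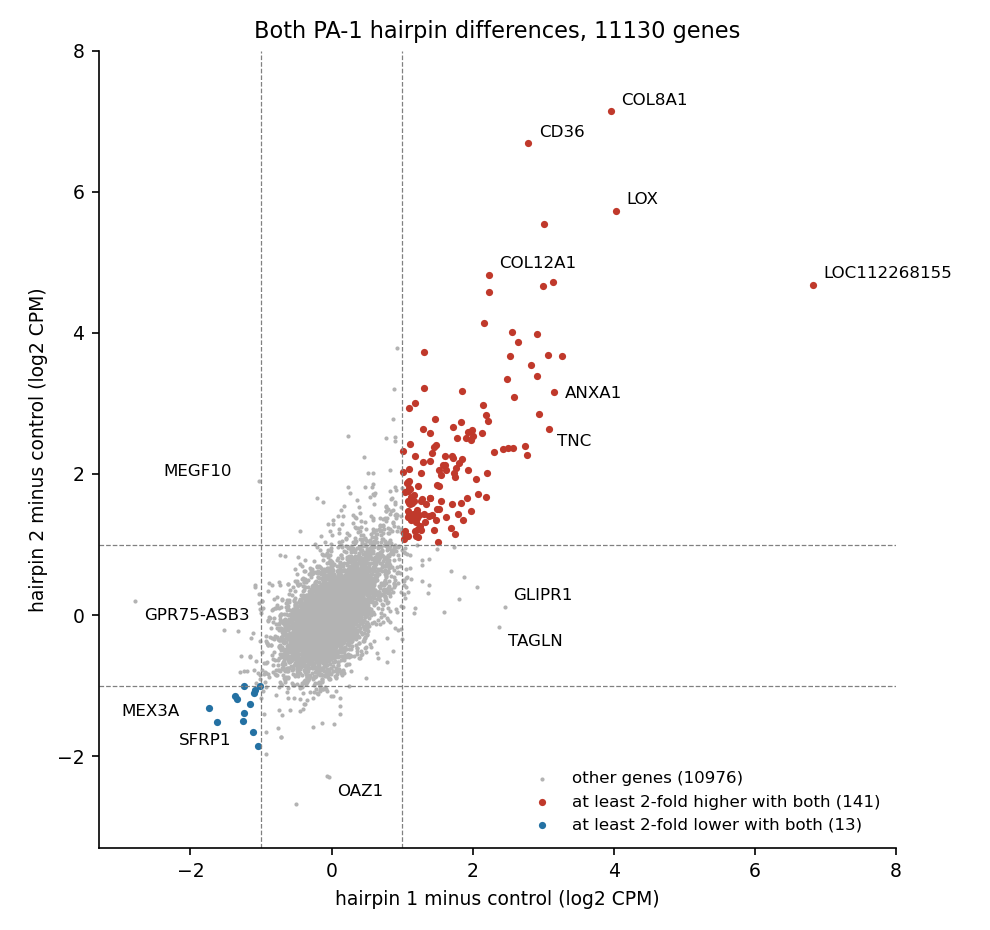
Difference from the control with hairpin 1 (x axis) and hairpin 2 (y axis) in log2 CPM, 1 point per gene for 11130 genes, with dashed lines at 2-fold. The 141 genes in red extend much further from 0 than the 13 in blue, and OAZ1, TAGLN and GLIPR1 lie near an axis.

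The 141 genes higher with both hairpins mostly had few counts in the control. Their control level had a median of 5.13 CPM, against 39.9 CPM over all genes, and 70 of them were under 5 CPM, so that they entered the set of genes through their level with the hairpins. With all genes split into 4 equal groups by mean level, 73, 31, 17 and 20 of them fell into each from low to high. RefSeq lists 130 as protein coding and 8 as long noncoding RNAs (5.67%, against 1.99% of all genes). Hairpin 2 lay further from the control than hairpin 1 in 110 of the 141. Over all genes hairpin 2 also spread wider, with 51.3% of genes within 0.2 of the control, against 58.7% with hairpin 1. DESeq2 called 82 of them, on the same libraries that chose them, so this count is not a separate result. In bulk RNA, more cells of a kind and more RNA per cell cannot be told apart.

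The top 20 were ranked by the smaller of both differences, and matrix proteins LOX, COL8A1 and TNC were among them. LOX, which crosslinks collagen and elastin, had 1.79 CPM in the control and 31.3 and 102 with hairpins 1 and 2. COL8A1, a short-chain collagen, had 0.577, 10.7 and 98.2 CPM. TNC, the glycoprotein tenascin C, had 68.6 CPM already in the control and 581 and 428 CPM. Its fitted log2 fold change was 2.88 (SE 0.26, edgeR adjusted p 0.178). For LOX and COL8A1 the hairpins themselves stood apart by 1.70 and 3.19 on the log2 scale, with hairpin 2 the higher, while for TNC hairpin 1 was the higher.

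Among membrane-associated proteins, ANXA1, a phospholipid-binding annexin, had 15.6 CPM in the control and 141 and 141 CPM with hairpins 1 and 2. It had the smallest p of the edgeR test (9.35e-06, adjusted p 0.104), with a log2 fold change of 3.17 (SE 0.18), and the hairpin libraries gave almost the same value. CAV2, a caveolin, stood at 1.92, 17.03 and 26.1 CPM. EMP1, a tetraspan membrane protein, stood at 3.08, 24.4 and 22.8 CPM, again with little between the hairpins. CD36, a fatty acid and thrombospondin receptor, rested on 4 counts in the control (0.256 CPM), with 2.47 CPM with hairpin 1 and 38.4 CPM with hairpin 2.

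Secreted factors formed another part of the top 20. IGFBP7, which binds insulin-like growth factors, stood at 5.77, 44.1 and 61.8 CPM. The neuropeptide galanin (GAL) stood at 4.23, 32.5 and 68.7 CPM and the cytokine IL1A at 1.47, 12.6 and 40.2 CPM. TFPI2, a serine protease inhibitor, had 3.40, 20.5 and 56.4 CPM, and PDGFB, a platelet-derived growth factor chain, 0.961, 5.92 and 10.8 CPM. In each of these 5 genes hairpin 2 lay above hairpin 1. That the control lay below both hairpins follows from how the top 20 were chosen.

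The remaining genes of the top 20 were of mixed kind. NAV3, a microtubule-associated neuron navigator, had 0.705, 7.77 and 10.3 CPM. CSMD3, a large transmembrane protein, had 0.449, 4.87 and 14.8 CPM, and ST8SIA4, a polysialyltransferase, 0.449, 4.44 and 26.4 CPM. Among noncoding transcripts, LINC02700 was at 28.3, 201 and 330.1 CPM, LINC00472 at 3.27, 19.5 and 42.95 CPM, and BCAN-AS1 at 0.833, 5.80 and 13.7 CPM. The uncharacterised LOC112268155 had no count in the control. Its levels of 13.2 CPM with hairpin 1 and 2.90 CPM with hairpin 2 were at least 68.7-fold and 15.1-fold higher than the control, taking 3 counts in the control library as the limit. In TOV21G the same gene stood at 7.23 CPM in the control and was listed at 0 with hairpin 1.

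**Figure D2:**
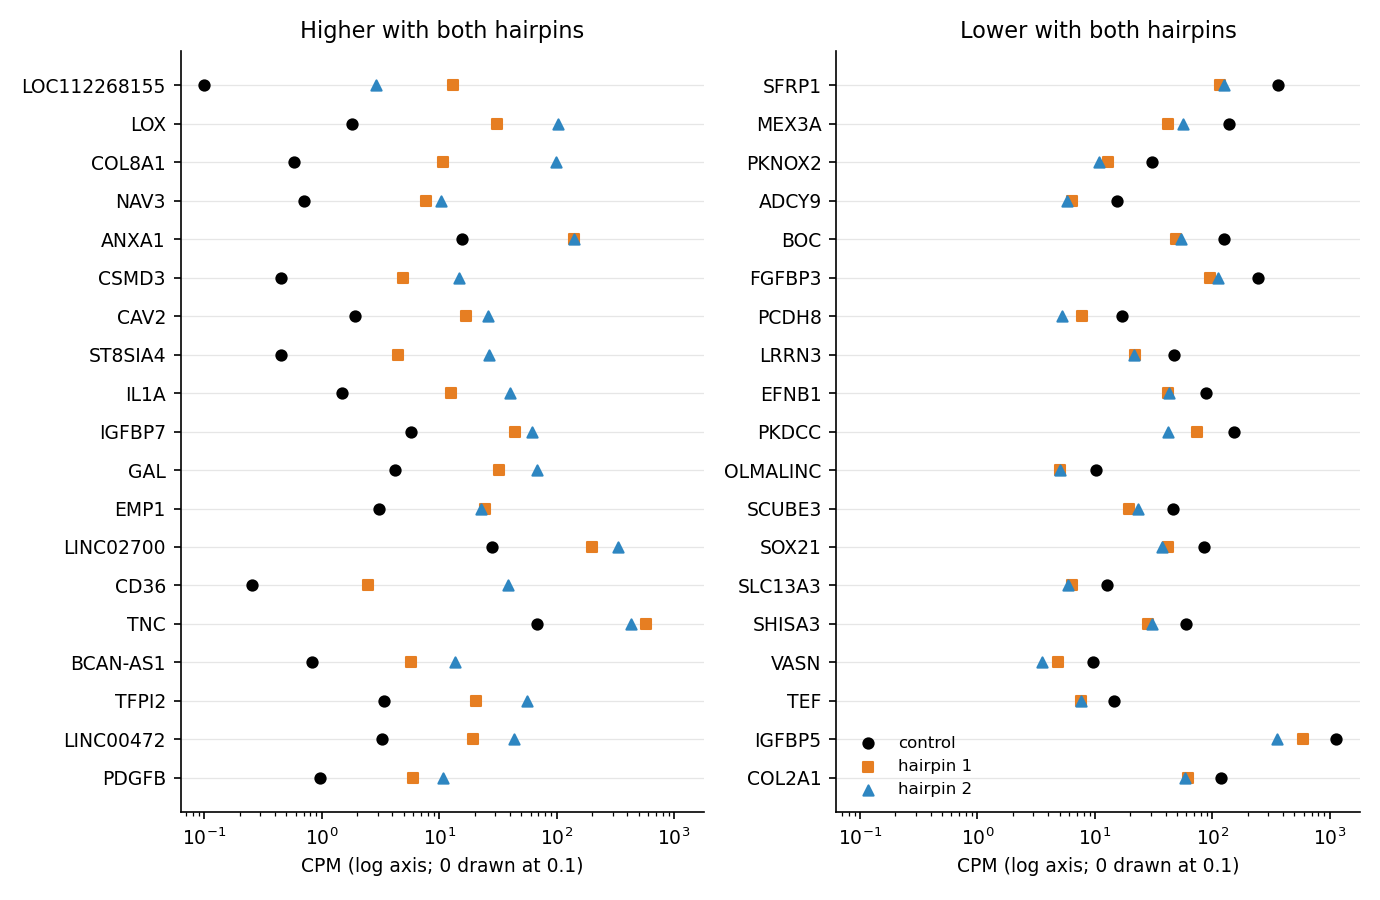
CPM of 19 of the 20 genes with the largest difference shared by both hairpins in each direction, on a log axis, 1 point per library (black circle control, orange square hairpin 1, blue triangle hairpin 2). On the left, where the choice puts all control points below both hairpins, gaps between the hairpins are wide for COL8A1 and CD36. A control of 0 is drawn at the left edge. On the right the hairpins lie close together except in PCDH8, PKDCC and IGFBP5.

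The 13 genes lower with both hairpins had more counts in the control, with a median of 88.7 CPM and a lowest value of 10.3 CPM. Part of this follows from the rule, since a gene lower with both hairpins reaches a mean of 5 CPM only through its control. SFRP1, a secreted antagonist of Wnt signalling, stood at 359.7 CPM in the control and 116 and 126 with hairpins 1 and 2 (log2 fold change -1.57, SE 0.15, edgeR adjusted p 0.178, DESeq2 adjusted p 2.39e-09). BOC, a co-receptor of Hedgehog ligands, stood at 125, 49.1 and 54.4 CPM. FGFBP3, which binds fibroblast growth factors, stood at 246, 95.1 and 111 CPM. The choice set both hairpin values of these 3 genes at least 2-fold below the control, and they lay close to each other.

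Among the rest of the 13 were a homeobox gene and cell-surface genes. PKNOX2, a TALE homeodomain factor, was at 30.9, 12.9 and 10.8 CPM. The protocadherin PCDH8 was at 16.9, 7.77 and 5.29 CPM, and LRRN3, a leucine-rich repeat neuronal protein, at 46.7, 21.8 and 21.6 CPM. EFNB1, an ephrin ligand, was at 88.7, 41.9 and 42.5 CPM. ADCY9, an adenylate cyclase, PKDCC, a secreted kinase, SCUBE3, the noncoding OLMALINC and MEX3A were also among the 13. DESeq2 called 9 of the 13, again on the libraries that chose them. Just short of 2-fold with hairpin 1, SOX21, a factor of neural progenitors, stood at 84.3, 42.1 and 37.4 CPM, COL2A1, the cartilage collagen, at 118, 62.1 and 58.2 CPM, and IGFBP5 at 1128, 592 and 357 CPM.

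Gene lists were read against all 11130 genes, of which 31.5% were above and 38.8% below the control with both hairpins, with medians of -0.03 with hairpin 1 and -0.02 with hairpin 2. Lists share members, and edgeR called no member of any list. A member under 5 CPM in the control could enter only through its level with the hairpins, so lists with such members are tilted upward.

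**Figure D3:**
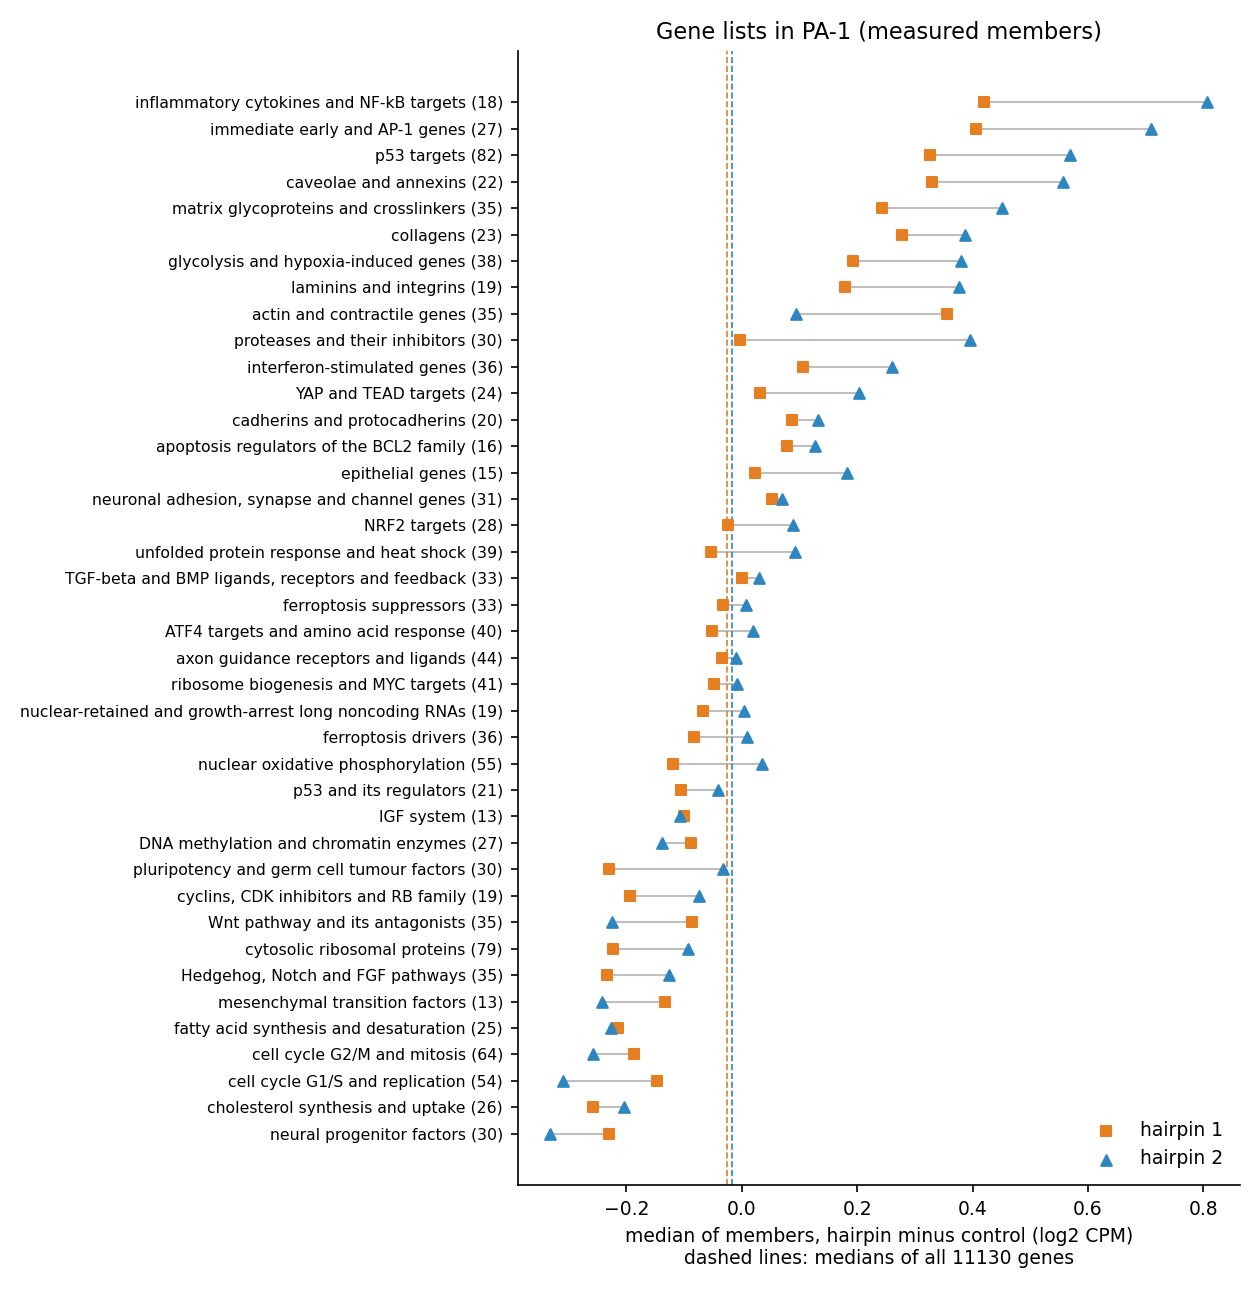
Median difference from the control over the measured members of each gene list (number in brackets) with hairpin 1 (orange squares) and hairpin 2 (blue triangles), in log2 CPM, with the medians of all 11130 genes as dashed lines. Inflammatory, immediate early, p53 target, caveolar and matrix lists lie to the right with both hairpins, and neural progenitor, cholesterol and cell cycle lists to the left.

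Structural genes of the matrix stood above the control in part of each list. Of 23 measured collagens 14 were above and 3 below the control with both hairpins, with medians of 0.28 and 0.39, and 5 were at least 2-fold higher with both. COL5A2, a fibrillar collagen, stood at 70.2, 319.8 and 501 CPM. COL12A1, which decorates fibrils, stood at 6.47, 30.9 and 187 CPM, and COL7A1, of anchoring fibrils, at 43.2, 109 and 128 CPM. COL17A1, of hemidesmosomes, was at 1.99, 5.12 and 27.8 CPM. DESeq2 called 2 collagens higher and 1, COL2A1, lower.

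Of 35 matrix glycoproteins and crosslinkers 22 were above and 7 below the control with both hairpins, with medians of 0.24 and 0.45, and DESeq2 called 6 higher. FN1, fibronectin, stood at 159, 601 and 503 CPM. POSTN, periostin, stood at 2.69, 6.23 and 22.5 CPM, so that most of its difference was with hairpin 2. The summed TPM of the list, a level corrected for transcript length, was 1856 in the control and 2619 and 2904 with hairpins 1 and 2. Among 19 laminins and integrins 12 were above and 2 below, and ITGA3, an integrin chain that binds laminin, reached 2-fold with both hairpins, at 20.1, 61.8 and 84.1 CPM. Of fibroblast markers, POSTN was 1 of the 5 measured, while PDGFRB stood at 14.7, 6.79 and 8.56 CPM and PDGFRA at 20.95, 22.4 and 22.9 CPM. The summed TPM of the 5 fibroblast markers was 838, 601 and 687, lower with both hairpins, while 3 of the 5 (POSTN, THY1 and PDGFRA) were above and 2 below the control, with medians of 0.10 and 0.13. Of the 7 fibroblast markers not measured, 2 (FAP and DPT) had no count in any PA-1 library, and the others had counts. DCN, 1 of these others, had none in the control. Of the 5 measured endothelial markers 3 were above and 0 below the control with both hairpins, with medians of 0.11 and 0.71 and a summed TPM of 97.7, 96.6 and 152. Of the 3 ovarian surface markers 2 were above and 0 below, with medians of 0.02 and 0.55. PDGFRB, POSTN and the collagens are expressed by many cells, and the part of other cell types in the matrix values was not tested beyond these levels.

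Proteases, caveolar and contractile genes were above the control in part. PLAU, urokinase, stood at 51.96, 129.5 and 484 CPM, with hairpin 2 far above hairpin 1. The list of proteases and their inhibitors held 30 measured genes, 13 above and 8 below the control with both hairpins, and its median was 0.00 with hairpin 1 and 0.40 with hairpin 2. Of 22 genes of caveolae and annexins 15 were above and 5 below, with medians of 0.33 and 0.56, and DESeq2 called 7 higher. CAV1, the main caveolar coat protein, stood at 10.8, 38.6 and 32.6 CPM, and ANXA3 at 3.91, 22.6 and 20.6 CPM. Of 35 actin and contractile genes 24 were above and 3 below. FLNC, filamin C, stood at 101, 354 and 453 CPM, and ACTA2, smooth muscle actin, at 11.7, 34.7 and 46.8 CPM. The median of this list was larger with hairpin 1 (0.36) than with hairpin 2 (0.09), the reverse of the matrix lists.

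Genes that YAP and TEAD are known to induce split into a few with large differences and many near the control. Of 24 measured, 12 were above and 8 below the control with both hairpins, with medians of 0.03 and 0.20, and 6 were at least 2-fold higher with both. CCN1 stood at 29.7, 107 and 270.05 CPM and CCN2 at 48.1, 174 and 223 CPM; both are secreted matricellular proteins. ANKRD1, a muscle ankyrin repeat protein, stood at 4.04, 27.8 and 21.7 CPM, and NT5E, the ecto-nucleotidase CD73, at 7.82, 37.3 and 189.6 CPM. MYOF, a ferlin of membrane repair, and F3, tissue factor, were the other members at least 2-fold higher with both hairpins.

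Immediate early genes and subunits of AP-1, the dimeric factor of FOS and JUN proteins, stood above the control in most members. Of 27 measured, 20 were above and 2 below the control with both hairpins, with medians of 0.41 and 0.71, and DESeq2 called 4. JUN stood at 26.9, 57.3 and 100.2 CPM and its partner FOSL1 at 13.3, 28.2 and 36.99 CPM, both at least 2-fold above the control. BHLHE40, a repressor of the clock, stood at 11.3, 29.9 and 52.1 CPM, and PHLDA1 at 56.3, 122 and 146 CPM. FOS itself differed with hairpin 2 alone, at 9.55, 10.3 and 19.7 CPM.

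Promoters of the genes that stood higher with both hairpins were searched for the letters that AP-1 is known to bind, TGANTCA, on both strands of the RefSeq window from 250 bases before to 50 after the first listed start. Windows were in the table for 108 of the 141 genes and 9030 of the 11130. The letters occurred in 17 of the 108 (15.7%), in 380 of the 9030 (4.21%), in 2120 of all 27305 promoters of the table (7.76%) and in 10 of 116 genes (8.62%) that were under 5 CPM in the control without belonging to the 141. Of the 13 genes lower with both hairpins 7 had windows, and 2 of these (28.6%) held the AP-1 letters. These shares are descriptions, and a match is not a binding site. Of the other letters, the TATA box TATAAA was in 16 of the 108 (14.8%), 441 of the 9030 (4.88%) and 3264 of all 27305 (11.95%). The letters TTTGAA were in 17 of the 108 (15.7%), 868 of the 9030 (9.61%) and 4212 of all 27305 (15.4%). Those of a p53 half-site were in 11 of the 108 (10.2%), 471 of the 9030 (5.22%) and 1786 of all 27305 (6.54%). CCAAT was in 39 of the 108 (36.1%) and 3395 of the 9030 (37.6%). Of the 116 genes, 9 held the TATA box (7.76%), 13 TTTGAA (11.2%) and 9 a p53 half-site (7.76%). Stretches before the start of 5 of the 17 with the AP-1 letters, chosen after their values were seen, are printed because their genes are named here with values, 5′ to 3′ on the gene's strand, with the letters in capitals. They are EMP1 (chr12:13196521-13196714, plus strand), TFPI2 (chr7:93890804-93890870, minus strand), F3 (chr1:94541933-94542009, minus strand), IL1A (chr2:112784494-112784535, minus strand) and ANKRD1 (chr10:90921246-90921312, minus strand), all in GRCh38.p14.
EMP1: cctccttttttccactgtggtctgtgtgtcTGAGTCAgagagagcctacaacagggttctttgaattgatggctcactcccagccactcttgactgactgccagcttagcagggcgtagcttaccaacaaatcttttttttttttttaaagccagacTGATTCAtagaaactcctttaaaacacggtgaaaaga
TFPI2: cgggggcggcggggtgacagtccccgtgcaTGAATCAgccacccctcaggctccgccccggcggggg
F3: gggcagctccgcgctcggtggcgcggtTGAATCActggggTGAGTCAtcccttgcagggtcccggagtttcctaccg
IL1A: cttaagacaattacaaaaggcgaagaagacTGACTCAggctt
ANKRD1: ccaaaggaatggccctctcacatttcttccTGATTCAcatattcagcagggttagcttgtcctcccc
EMP1 and F3 hold the letters 2 times in the printed stretch, and the letters read the same on both strands. The CPM of EMP1, TFPI2, IL1A and ANKRD1 are given above, and F3 stood at 10.6, 23.3 and 27.1 CPM. The TEAD letters ACATTCC were in 4 of the 108 windows (3.70%), 187 of the 9030 (2.07%) and 951 of all 27305 (3.48%). They were in 5 of the 116 genes under 5 CPM in the control outside the 141 (4.31%). CCN2 is shown because it holds them on the opposite strand, at chr6:131951431-131951497 (minus strand).
CCN2: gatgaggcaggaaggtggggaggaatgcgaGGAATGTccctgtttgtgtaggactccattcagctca

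Targets of p53 stood above the control in most members, mostly by less than 2-fold. Of 82 measured, 66 were above and 5 below the control with both hairpins (80.5% and 6.10%), with medians of 0.33 with hairpin 1 and 0.57 with hairpin 2. At least 2-fold higher with both were 5 members, and 18 were so with hairpin 2. DESeq2 called 5 higher. MDM2 stood at 166 CPM in the control and 373 and 512 with hairpins 1 and 2 (log2 fold change 1.41, SE 0.24, edgeR adjusted p 0.306, DESeq2 adjusted p 6.81e-06). BTG2, an antiproliferative gene, stood at 8.07, 24.7 and 35.7 CPM, and PLK2, a kinase induced by p53, at 10.4, 23.8 and 50.2 CPM. TNFRSF10C, a decoy receptor of TRAIL, and the chaperone HSPA4L were the other 2 members past 2-fold. CDKN1A, p21, stood at 19.3, 35.97 and 107 CPM, with the hairpins 1.57 apart on the log2 scale (log2 fold change 1.90, SE 0.68, edgeR adjusted p 0.653).

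The list of p53 and its regulators lay closer to all genes. Of its 21 measured genes, 4 were above and 12 below the control with both hairpins, with medians of -0.11 and -0.04, and none reached 2-fold with both hairpins. MDM2, which was at least 2-fold higher with both hairpins, was counted among the targets and not in this list. TRIM28, a corepressor, stood at 639, 517 and 503 CPM, and CHEK1, a checkpoint kinase, at 113, 81.4 and 93.4 CPM. The letters of a p53 half-site were in 6 of 70 promoter windows of the p53 target list (8.57%), 471 of 9030 (5.22%) and 1786 of 27305 (6.54%). PLK2 is shown because it holds 1, at chr5:58460179-58460248 (minus strand, GRCh38.p14), with the half-site in capitals.
PLK2: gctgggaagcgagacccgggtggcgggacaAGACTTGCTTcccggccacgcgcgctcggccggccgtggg

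Genes of the cell cycle stood below the control with both hairpins by small amounts. Of 64 measured genes of G2/M and mitosis 55 were below and 3 above the control with both hairpins, with medians of -0.19 and -0.26. None was at least 2-fold lower with both hairpins, none was called by DESeq2, and 5 had an unadjusted p under 0.05. CDC25B, the phosphatase that opens mitosis, stood at 91.2, 58.9 and 42.6 CPM, and KIF20A, a kinesin of cytokinesis, at 95.5, 66.1 and 63.5 CPM. Of 54 genes of G1/S and replication 40 were below and 3 above, with medians of -0.15 and -0.31. CDT1, which licenses origins, stood at 73.7, 45.2 and 36.99 CPM, and the activator E2F1 at 30.5, 21.1 and 21.3 CPM. The hairpin values of these 4 genes lay closer to each other than to the control.

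Promoters of the G2/M list carry known letters. The cell cycle homology region, TTTGAA, was in 38 of the 54 windows in the table (70.4%) against 868 of 9030 (9.61%), and CCAAT was also in 38 of the 54 (70.4%) against 3395 of 9030 (37.6%). These shares describe the list and use no value of these libraries. Of the members with both, PLK1, the mitotic kinase, stood at 119, 101 and 100.2 CPM, and KIF11, a spindle kinesin, at 232, 179.9 and 191 CPM. Their stretches at chr16:23678786-23678888 and chr10:92593047-92593129 (both plus strand, GRCh38.p14) show both kinds of letters in capitals, in KIF11 on the opposite strand.
PLK1: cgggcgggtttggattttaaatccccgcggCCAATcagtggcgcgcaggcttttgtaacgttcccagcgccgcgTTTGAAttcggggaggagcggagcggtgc
KIF11: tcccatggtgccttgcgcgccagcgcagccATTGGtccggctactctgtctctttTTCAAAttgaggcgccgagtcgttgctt

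**Figure D4:**
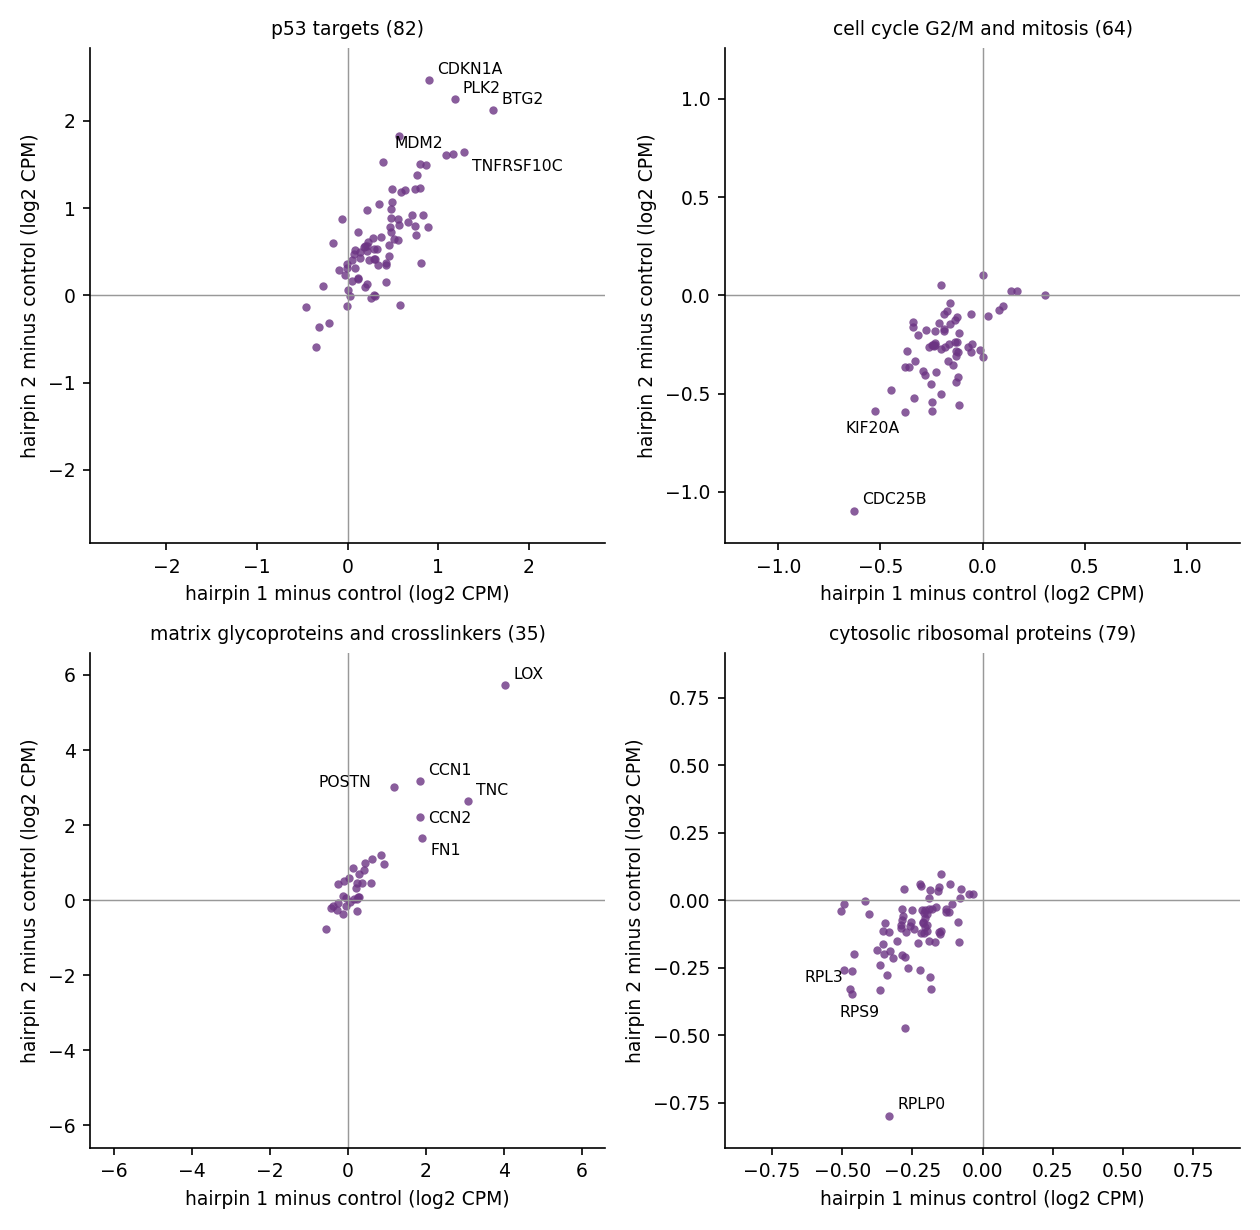
Difference from the control with hairpin 1 (x axis) and hairpin 2 (y axis) in log2 CPM for the measured members of 4 gene lists, 1 point per gene, with a different scale in each panel. Members of the p53 target list lie mostly in the upper right, those of the G2/M and ribosomal protein lists mostly in the lower left near the control, with CDC25B and RPLP0 furthest out, and 6 labelled matrix genes stand far above the others of their list.

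Genes of lipid synthesis and of ribosomes also stood below the control by small amounts. Of 26 genes of cholesterol synthesis and uptake 22 were below and 0 above the control with both hairpins, with medians of -0.26 and -0.20. INSIG1, the sterol sensor's anchor, stood at 73.8, 45.4 and 43.7 CPM and CYP51A1 at 184, 129 and 130.1 CPM. Of 25 genes of fatty acid synthesis and desaturation 18 were below and 4 above, with medians of -0.21 and -0.23. SCD, the stearoyl-CoA desaturase, stood at 2918, 1413 and 1658 CPM and FASN at 1072, 735 and 705 CPM. An exception was ELOVL7, an elongase, at 3.08, 13.1 and 12.1 CPM. Of 79 cytosolic ribosomal proteins 66 were below and 0 above, with medians of -0.22 and -0.09, and RPLP0 was the furthest with hairpin 2, at 2354, 1871 and 1355 CPM. Ribosomal protein genes have many pseudogenes, among which reads can be split.

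Factors of embryonic identity stood on both sides of the control. POU5F1, the pluripotency factor OCT4, was at 476 CPM in the control and 1061 and 1283 with hairpins 1 and 2 (log2 fold change 1.30, SE 0.18, edgeR adjusted p 0.228). It has near-identical pseudogenes, so its value is less certain. NANOG stood at 15.1, 22.9 and 27.96 CPM. In contrast LIN28A, which blocks let-7 maturation, stood at 2850.4, 1727 and 2055 CPM, SOX2 at 401, 316 and 311 CPM, and DNMT3B, a de novo DNA methyltransferase, at 355, 266 and 236 CPM. Of 30 pluripotency and germ cell tumour factors 10 were above and 13 below the control with both hairpins.

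Neural progenitor factors stood below the control in most members, with 20 of 30 below and 6 above the control with both hairpins and medians of -0.23 and -0.33. DESeq2 called 2 lower. OTX2, a factor of the forebrain, stood at 44.98, 26.1 and 26.1 CPM, and ZIC2 at 405, 261 and 264 CPM. Of 35 genes of Hedgehog, Notch and FGF signalling 20 were below and 12 above, and of 35 of the Wnt pathway 20 were below and 9 above. HES1, a Notch target, stood at 40.1, 27.9 and 21.99 CPM. Within the Wnt list, the ligand WNT10B was above the control, at 8.27, 27.2 and 24.9 CPM. MYCN, a driver of neural progenitor growth, stood at 183, 118 and 106 CPM.

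Inflammatory, interferon and hypoxia lists stood above the control in most measured members, to different degrees. Of 50 inflammatory cytokines and NF-kB targets 18 were measured. Of these, 14 were above and 3 below the control with both hairpins, with medians of 0.42 and 0.81, and DESeq2 called none. Besides IL1A, the cytokine LIF stood at 4.23, 9.38 and 13.7 CPM and the receptor IL6R at 4.10, 9.01 and 14.4 CPM. IL1A, LIF and IL6R were under 5 CPM in the control and were measured only through their level with the hairpins. Of 36 interferon-stimulated genes 20 were above and 10 below, with medians of 0.11 and 0.26. TAP1, which loads peptides for presentation, was the 1 member at least 2-fold higher with both, at 2.76, 6.97 and 12.8 CPM. It too was under 5 CPM in the control. Of 38 genes of glycolysis and hypoxia 25 were above and 6 below, with medians of 0.19 and 0.38, and none reached 2-fold with both hairpins. Summed TPM of the inflammatory list was 242, 297 and 418, and of the interferon list 1954, 2015 and 1956. For glycolysis and hypoxia it was 18202, 17665 and 18995, below the control with hairpin 1. Of blood cell markers, PTPRC, the pan-leukocyte CD45, had no count in any PA-1 library, and all 14 were under 5 CPM on average.

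Ferroptosis, an iron-dependent death by lipid peroxidation that the title names, gave lists centred on the control. Of 33 suppressors 12 were above and 13 below with both hairpins, with medians of -0.03 and 0.01, and of 36 drivers 9 were above and 15 below, with medians of -0.08 and 0.01. SLC7A11, the cystine importer, stood at 371, 426 and 432 CPM, and GPX4, which reduces lipid peroxides, at 123, 109 and 120.3 CPM. TFRC, the transferrin receptor, was higher with both at 249.2, 330.2 and 366 CPM, ACSL4, which feeds polyunsaturated lipids into membranes, was at 232, 193 and 230.4 CPM, and the ferritin chain FTH1 at 718, 627 and 767 CPM. The largest shared differences were in SCD, counted among the suppressors, and SAT1, a polyamine acetyltransferase counted among the drivers, at 36.1, 71.4 and 105 CPM. DESeq2 called 1 member of each list, SCD lower and SAT1 higher.

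Neuronal, axonal and adhesion genes included members far from the control on both sides. Of 31 genes of neuronal adhesion, synapses and channels 14 were above and 11 below the control with both hairpins, and 5 were at least 2-fold higher and 1, LRRN3, at least 2-fold lower with both. VGF, a secreted neuropeptide precursor, stood at 9.29, 42.02 and 165 CPM and GAP43, a growth cone protein, at 13.3, 28.3 and 35.2 CPM. Of 44 axon guidance genes 16 were above and 20 below. NRP1, a receptor of semaphorins and VEGF, stood at 2.31, 6.42 and 6.38 CPM, above the control where the ligand EFNB1 was below it. Of 20 cadherins and protocadherins 10 were above and 6 below, with PCDH11X at 4.74, 10.4 and 25.9 CPM and the desmosomal DSC3 at 1.60, 3.02 and 11.7 CPM, both above the control where PCDH8 was below it.

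Smaller groups gave single members with large differences. BAMBI, a decoy receptor of TGF-beta and BMP signalling, stood at 8.65, 20.98 and 35.1 CPM in a list of 33 with 12 above and 11 below the control. Of 16 regulators of the BCL2 family 8 were above and 4 below, and PMAIP1, the NOXA protein, stood at 19.4, 33.01 and 50.6 CPM. KLF5, a factor of epithelial and embryonic cells, was at 4.61, 9.81 and 17.2 CPM. Among noncoding RNAs MIR22HG, a host of a microRNA, stood at 1.67, 4.87 and 9.39 CPM and GAS5, a host of small nucleolar RNAs, at 86.9, 52.3 and 62.7 CPM, on opposite sides of the control. Mesenchymal transition factors were below the control in 8 of 13 and above in 3, and 16 of 27 enzymes of DNA methylation and chromatin were below and 7 above, with no member of either list at 2-fold with both hairpins.

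Markers of clear cell carcinoma, the type of the other line, stood above the control in sum. Of 12, 7 were measured, and their summed TPM was 469 in the control and 1850 and 1699 with hairpins 1 and 2. Most of it was SPP1, osteopontin, which stood at 169, 909 and 869 CPM, while TSTD1, also of the list, had no count in any of the 3 PA-1 libraries. In TOV21G SPP1 stood at 5929.9, 1593 and 3679 CPM, lower with both hairpins than in the control.

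Near the medians of all genes, between -0.12 and 0.09, lay those of nuclear oxidative phosphorylation, ribosome biogenesis and MYC targets, ATF4 targets, NRF2 targets, and the unfolded protein response. The 6 measured replication-dependent histones stood further out with hairpin 2, with medians of 0.00 and 0.50. In the unfolded protein response, the stress kinase EIF2AK3 stood apart from the others at 35.2, 82.7 and 82.5 CPM. The 5 genes with the most counts in the control were EEF1A1 (15627, 12618 and 16089 CPM), RNR2 (11604, 14847 and 15829.7 CPM), EEF2 (4372, 2921 and 3558 CPM), GAPDH (3625, 2836 and 3349.8 CPM) and HNRNPA1 (3242, 2649.7 and 2639 CPM), and none of them differed 2-fold.

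The hairpins also differed from each other. Hairpin 2 was at least 2-fold above hairpin 1 in 107 genes (0.961%) and at least 2-fold below it in 43 (0.386%), with 1 library each and no test. The widest gaps upward were in CD36 (3.90 on the log2 scale) and COL8A1 (3.19), followed by the read-through transcript GPR75-ASB3 and MEGF10. LAMA4, a laminin chain of basement membranes, was among the first 10, at 9.29, 17.3 and 86.4 CPM. In MEGF10, an engulfment receptor, the hairpins lay on opposite sides of the control, at 22.2 CPM in the control and 10.9 and 83.7 with hairpins 1 and 2. The widest gaps downward were in TAGLN, a smooth muscle actin-binding protein, at 31.8, 166 and 28.3 CPM, and GLIPR1 at 3.14, 17.7 and 3.42 CPM. CNN1, calponin, had the same form at 4.81, 14.8 and 4.98 CPM. In these 3 genes hairpin 2 lay at the control and hairpin 1 far above it. The ribosomal RNA copies RNA28SN2 and RNA28SN3, which are nearly identical and cannot be told apart by reads, were also in this group.

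A set of genes was lower with 1 hairpin and at the control with the other. Taking genes at least 2-fold lower with 1 hairpin and within 0.3 on the log2 scale of the control with the other, a bound chosen after the values were seen, 25 genes were lower with hairpin 2 alone and 8 with hairpin 1 alone. OAZ1, antizyme, which regulates polyamine synthesis, stood at 242 CPM in the control and 236 and 49.1 with hairpins 1 and 2. MAPRE1, a microtubule plus-end protein, stood at 292, 300.2 and 99.7 CPM. The mitochondrial ribosomal protein MRPL51 was at 59.3, 64.2 and 24.2 CPM, the ribonuclease inhibitor RNH1 at 24.1, 26.3 and 9.08 CPM, and the replicative helicase subunit MCM3 at 359, 298 and 159 CPM. With hairpin 1 alone, EIF2S2, a subunit of the initiation factor eIF2, stood at 181, 88.6 and 222 CPM. Of the 8, GPR75-ASB3 and ERV3-1-ZNF117 are read-through transcripts that share reads with their component genes, as does ARPIN-AP3S2 among the 25.

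TOV21G, whose libraries the choice did not use, received the same hairpins. Of the 25 genes lower with hairpin 2 alone in PA-1, 21 had a mean of at least 5 CPM in TOV21G, and 18 of these were at least 2-fold lower there with hairpin 2, while 0 were with hairpin 1. Over all 10002 genes at that level in TOV21G, 9.55% were at least 2-fold lower with hairpin 2 and 4.88% with hairpin 1. The median of the 21 there was -1.49 on the log2 scale with hairpin 2 and -0.17 with hairpin 1. The 18 include the ribosomal RNA copy RNA28SN3. OAZ1 stood at 214 CPM in the TOV21G control, 227 with hairpin 1 and 30.4 with hairpin 2, and MAPRE1 at 248, 189.8 and 66.1 CPM. MRPL51 was at 66.4, 59.1 and 13.5 CPM. The 3 measured genes that did not reach 2-fold there were GAREM1, PINK1 and TRANK1. Of the 8 genes lower with hairpin 1 alone, 7 were measured in TOV21G, and 4 of these (CXorf56, EIF2S2, GPR75-ASB3 and TNNT1) were at least 2-fold lower with hairpin 1 and 0 with hairpin 2. For EIF2S2 the TOV21G difference was -1.68 on the log2 scale with hairpin 1 and -0.15 with hairpin 2, and for CXorf56 -1.44 and 0.49. TNNT1 was lower there with both hairpins, at -1.41 and -0.99, just short of 2-fold with hairpin 2. GPR75-ASB3 was also lower with both, at -1.02 and -0.57. In the remaining 3 of the 7, hairpin 1 was less than 2-fold below the TOV21G control or above it.

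**Figure D5:**
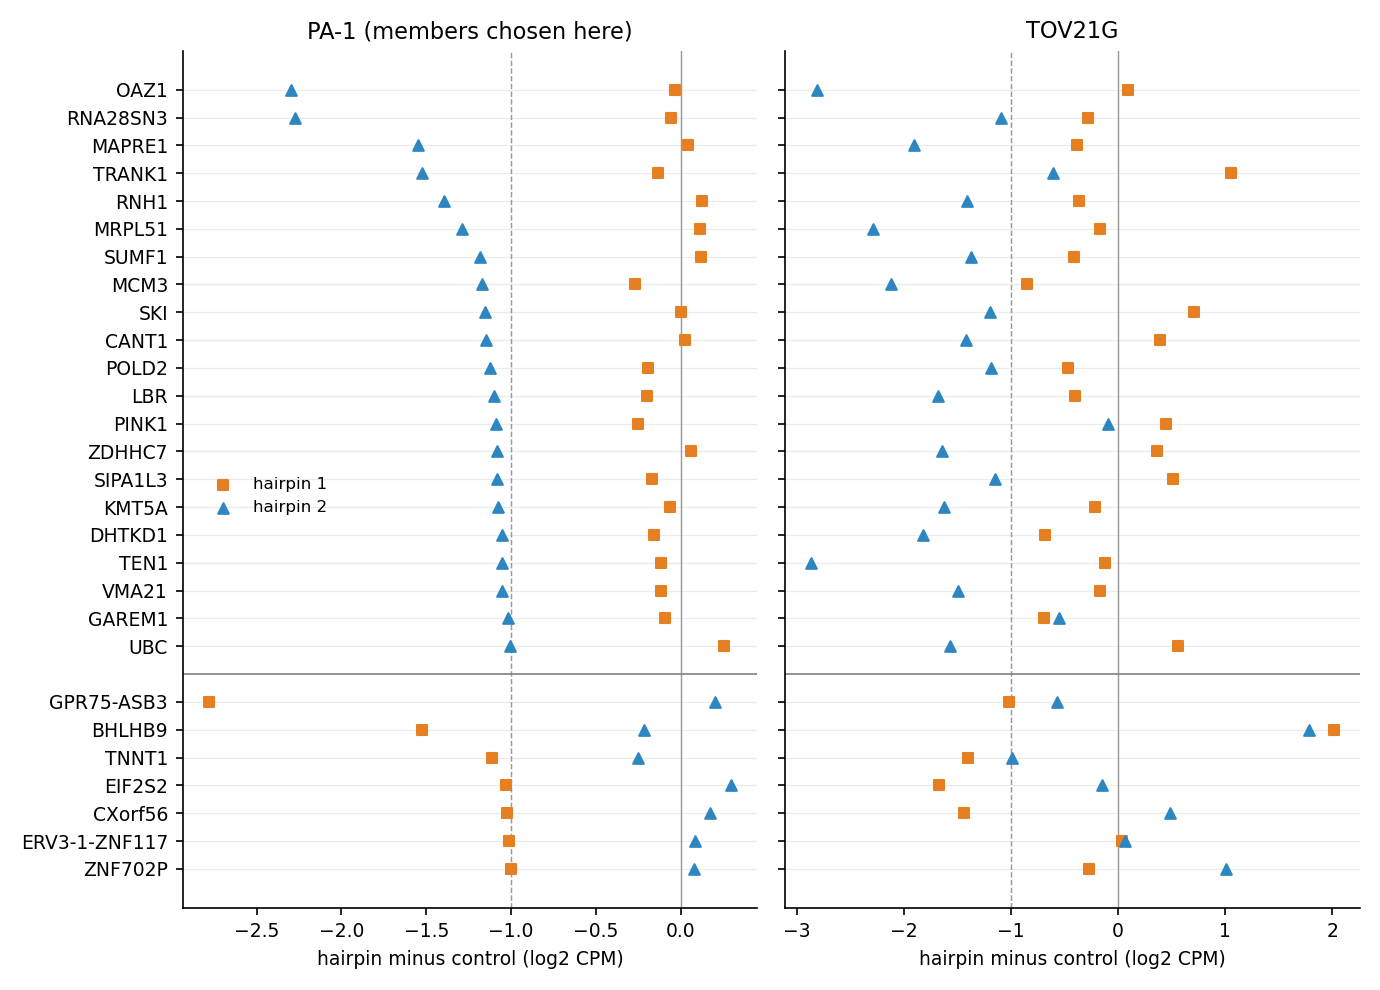
Difference from the control in log2 CPM with hairpin 1 (orange squares) and hairpin 2 (blue triangles) for the 21 genes lower with hairpin 2 alone (upper block) and the 7 lower with hairpin 1 alone (lower block) that were measured in both lines, in PA-1 on the left and TOV21G on the right, with a dashed line at 2-fold lower. On the right, 18 of the 21 blue triangles of the upper block and 4 of the 7 orange squares of the lower block lie at or beyond the line.

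Genes higher with 1 hairpin alone were read in the same manner. Of 27 genes at least 2-fold higher with hairpin 2 and within 0.3 of the control with hairpin 1, 16 were measured in TOV21G, and 8 of these were at least 2-fold higher there with hairpin 2 and 1 with hairpin 1, against 5.69% and 2.6% of all 10002 genes. CXCL5, a neutrophil chemokine, stood at 12.9, 15.1 and 75.4 CPM in PA-1 and at 43.3, 34.1 and 471 CPM in TOV21G. RND3, a small GTPase, stood at 22.7, 23.1 and 58.2 CPM and at 39.7, 52.5 and 211 CPM. Of 9 genes higher with hairpin 1 alone, 4 were measured in TOV21G, and 1, GLIPR1, was at least 2-fold higher with hairpin 1, and also with hairpin 2. TAGLN, far above the control with hairpin 1 in PA-1, stood at 6.46, 7.76 and 6.76 CPM in TOV21G.

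A minority of the genes at least 2-fold higher with both hairpins in PA-1 passed 2-fold with both in TOV21G. Of the 141 higher genes 96 were measured in TOV21G, and 15 were at least 2-fold higher there with both hairpins, which is 15.6% of the 96, 10.6% of the 141 and 11.9% of the 126 such genes of TOV21G (1.26% of 10002). They included ACTA2, ANKRD1, CA13, CHMP4C, EIF2AK3, FLNC, LOC101927345, NEAT1, NT5E, PMEPA1, PTPRB, SERPINB9, SPINT1 and TFPI2. FLNC stood at 16.6, 63.99 and 326 CPM in TOV21G, and TFPI2 at 40.6, 508 and 433 CPM. NEAT1, a nuclear RNA that builds paraspeckles, stood at 121, 275 and 279 CPM in PA-1 and at 356, 1110.3 and 1043 CPM in TOV21G. ANXA1 and LOX, high in PA-1 with both hairpins, were abundant in the TOV21G control already, at 421 and 59.9 CPM, and stood at 460.02 and 349 CPM and at 60.05 and 32.3 CPM with hairpins 1 and 2. Of the 13 genes lower with both hairpins in PA-1, 6 were measured in TOV21G and 0 were among the 232 genes at least 2-fold lower there (2.32%). MEX3A stood at 77.1, 39.3 and 32.4 CPM there, just short of 2-fold with hairpin 1.

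The difference between the lines was tested over all 6 libraries. edgeR's quasi-likelihood test of whether the knockdown effect differed in TOV21G called 0 of 11130 genes (0%), with a smallest adjusted p of 0.999962 and 489 genes at an unadjusted p under 0.05. No difference described here is therefore shown to be particular to PA-1.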

How the data were processed

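RNA-seq libraries of poly(A)-selected RNA were prepared with a kit that marks strand, per the labels' protocols; the strand setting of the counting was not given in the sources used here. The submitters' processing notes name cutadapt 1.12, STAR 2.5.3a, RSEM 1.2.31 and edgeR 3.26.8 and the build hg38, without roles. The authors deposited 1 table per library with RSEM's expected counts per gene, TPM and FPKM, and transcript lengths, per the file headers. FPKM values were not used. Deposited TPM served for levels per length and as an alternative.

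Each expected count was rounded to a whole number, and libraries were scaled by TMM in edgeR 4.0.16 (R 4.3.3, limma 3.58.1). The main fit used the 3 PA-1 libraries alone, with edgeR's quasi-likelihood test and Benjamini-Hochberg adjustment over 11130 genes, and left 1 residual degree of freedom. DESeq2 1.42.0 and other settings were alternatives, and the scripts were tested on simulated data. Samples were grouped by their titles. No label says that libraries came from separate cultures. In the main fit, the spread behind each p-value came from hairpin 1 against hairpin 2, shared in part across genes. These are different reagents, and the single control library added no spread of its own. The library of each hairpin was taken as a knockdown sample of its own.

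The text names the 20 genes per direction with the largest difference shared by both hairpins, the 10 per direction with the widest gap between hairpins, up to 6 members per list, and fixed genes of p53 and ferroptosis. FOS, PLK1, KIF11, SPP1, MCM3, MRPL51, RNH1, EIF2S2, CXCL5, RND3 and the other MEX3 genes were named after their values were seen. Members and lists were chosen with earlier results of these data known, and the genes lower or higher with 1 hairpin alone after these values were seen. Promoter windows are from RefSeq (GRCh38.p14), with 1 start site per gene and 7811 further windows left out. Some named genes are not reported here.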

Additional observations from a re-analysis of the deposited data

Results flagged for a closer look

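EFNB1, an ephrin ligand, lay on opposite sides of the control in the 2 lines in all 4 hairpin libraries. Its PA-1 control had 88.7 CPM, against 41.9 and 42.5 CPM for hairpins 1 and 2. Its TOV21G control had 25.8 CPM, against 32.2 and 51.6 CPM. The log2 effect in TOV21G minus that in PA-1 was 1.76, and edgeR's interaction test over all 6 libraries gave an adjusted p of 0.999962 for it, so the difference did not pass the test.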

How the results depend on the processing

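The 0 genes called by edgeR depended on the setting. DESeq2 called 102 higher and 17 lower, scaling by total counts 18 and 1, and a fit without a filter on low counts 470 and 133. Called counts were 0 to 0 when either hairpin library was left out (then 1 knockdown library, assumed to vary like the TOV21G libraries), and 0 with a minimum of 1 or 20 CPM, median-of-ratios scaling or all 6 libraries. With the hairpin number as a replicate block over all 6 libraries, 13 were called higher and 0 lower; the number marks a shared reagent and not a shared culture, and the difference between the lines stayed at 0 calls. None of the genes named with a fold change changed direction under these alternatives.

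Counts of 2-fold genes followed the threshold on level. With a minimum of 1 CPM and of 20 CPM they were 450 and 73 higher and 126 and 23 lower for hairpin 1, 620 and 150 higher and 167 and 39 lower for hairpin 2, 315 and 64 higher with both, 257 and 50 with hairpin 2 above hairpin 1, and 148 and 22 with it below. With both lower, 1 CPM gave 37. At 1.5-fold the counts were 497 and 283 for hairpin 1, 732 and 452 for hairpin 2, 353 and 104 with both, and 442 and 306 between hairpins. Deposited TPM gave 17 lower with hairpin 1 and 7 lower with both. The causes were not tested. With 1 control library, a gene displaced in that library alone cannot be told apart from one displaced by both hairpins. Scaling by total counts moved the median difference of all genes from -0.02 to 0.01.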
